A study of Mus musculus with 10 samples.

Results

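Genes of retinoid uptake, storage, synthesis, binding and breakdown were examined in the skin of grafted C3H/HeJ mice that had received baricitinib or vehicle. The 9 genes listed were Crabp1, Crabp2, Dhrs9, Aldh1a1, Aldh1a2, Aldh1a3, Cyp26b1, Stra6 and Lrat, and every probe set that the platform annotation gives to exactly 1 of them was taken. Of these genes 8 had a probe set and Dhrs9 was not analysed here. The 8 genes were read by 11 of the 45037 probe sets tested. Aldh1a3 had 3 probe sets, Lrat had 2 and each other gene had 1.

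Skin from a C3H/HeJ mouse with spontaneous alopecia was grafted onto young adult C3H/HeJ mice free of disease, a procedure that transfers alopecia areata (AA), an autoimmune hair loss, to the recipients. All mice of both groups carried such a graft and an osmotic pump implanted at grafting, which delivered baricitinib, a drug that blocks the kinases JAK1 and JAK2, in 5 mice and vehicle in the other 5. Skin was taken at week 12, with 1 array per mouse, to ask how the drug altered gene expression when disease onset was being prevented. The sources used here do not say whether the biopsies held graft, recipient skin or both, and ungrafted skin was not part of the series.

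Retinol circulates bound to a carrier protein and enters cells through a surface receptor. It is then stored as an ester or oxidised, first to retinaldehyde and next to retinoic acid, the form that activates nuclear receptors. Small binding proteins carry retinoic acid inside the cell and CYP26 enzymes destroy it. In skin these steps are divided among epidermis, hair follicle, sebaceous gland and dermis, and many of them vary with the hair cycle. Because the samples were whole skin, fewer cells of a type and less RNA per cell could not be told apart.

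The 10 arrays were not of equal quality. Any pair of 9 arrays correlated with r between 0.946 and 0.994 over all probe sets, and vehicle replicate 5 reached 0.697 to 0.729 with the rest. On 7 of the 11 retinoid probe sets that array had the lowest value of all 10. The gap between 3' and 5' control probe sets for housekeeping transcripts, which widens as RNA is degraded or amplified short, was 0.99 to 1.18 log2 on the baricitinib arrays, 1.01 on vehicle replicate 4 and 2.0 to 4.35 on the other vehicle arrays. The part of RNA quality in the differences below was not tested. Epidermal and dermal genes were present on all arrays: basal keratinocyte genes averaged 10.46 to 12.25 log2 and fibroblast genes 11.04 to 12.14 log2.

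With all arrays the clearest separation between the groups was in Crabp1 and Cyp26b1, which bind and degrade retinoic acid. Both had higher values in baricitinib treated skin. The mean difference was 2.04 ± 0.49 log2 for Crabp1 and 1.67 ± 0.41 log2 for Cyp26b1 (SE, n = 5 each, limma adjusted p = 0.223 and 0.224). Aldh1a3, which makes retinoic acid, had 3 probe sets. On the brightest, all baricitinib values lay below those of 4 of the 5 vehicle arrays. Vehicle replicate 5 lay below them all, and with all arrays the difference was -0.90 ± 1.23 log2 (SE, limma adjusted p = 0.665). None of the 11 retinoid probe sets passed an adjusted p of 0.05, and 0% of all probe sets passed it. At an unadjusted p under 0.05 there were 2 retinoid probe sets, both higher, against 9.21% of all probe sets higher and 5.62% lower. Every baricitinib array lay above every vehicle array at 1 retinoid probe set, that of Crabp1, against 3.09% of all probe sets. At 0 retinoid probe sets did every baricitinib array lie below every vehicle array, against 2.03% of all. These 11 probe sets had a median difference of -0.08 log2 (5 positive and 6 negative), beside a median of -0.07 over all probe sets.

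Without vehicle replicate 5 the number at an adjusted p under 0.05 was again 0 of the 11 and 0% of all probe sets. At an unadjusted p under 0.05 there were 2 higher, Crabp1 and Cyp26b1, against 14.4% of all probe sets. There were 3 lower, a pair of Aldh1a3 probe sets and the brighter one of Lrat, against 13.5% of all. The groups then did not overlap at Crabp1, which was higher (4.42% of all probe sets), and at the brightest Aldh1a3 probe set, which was lower (4.11% of all). With arrays weighted by their quality, 2 retinoid probe sets passed higher (Crabp1 and Cyp26b1) and 3 passed lower (the same 3 of Aldh1a3 and Lrat). The weight was 0.0289 for vehicle replicate 5, 0.4975 for vehicle replicate 4, 5.426 for baricitinib replicate 1 and 1.087 to 2.046 for the others. These weights were estimated from the same values that were tested. In that fit 10.9% of all probe sets passed higher and 10.6% lower.

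**Figure D1:**
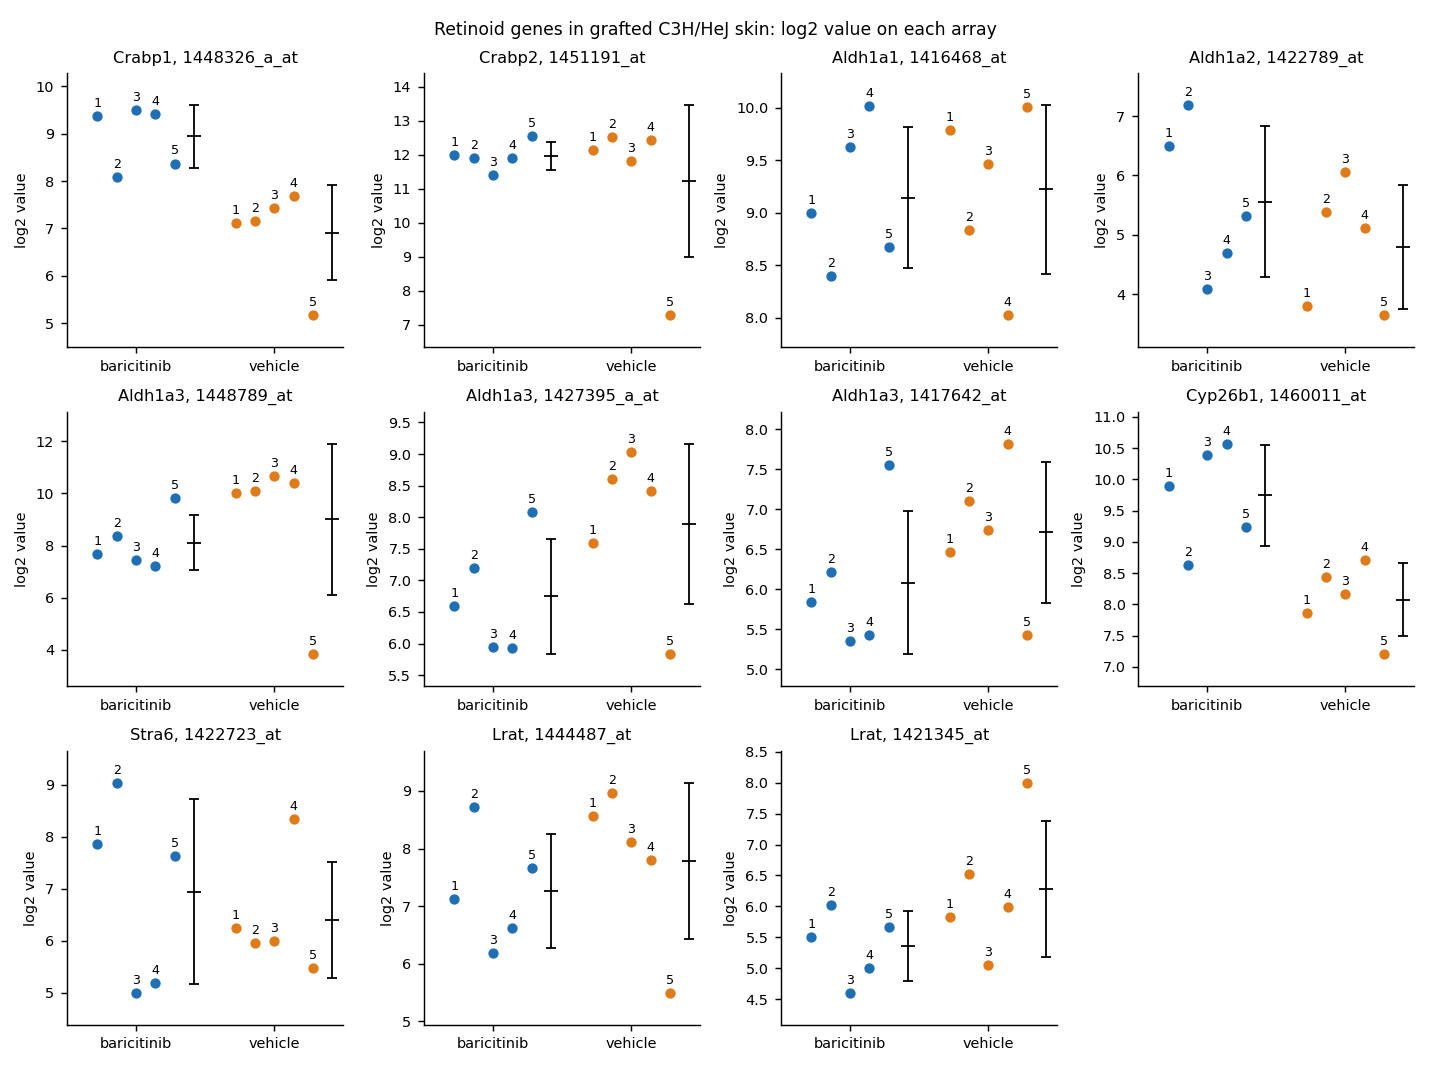
Log2 value of each of the 11 retinoid probe sets on each array, by treatment, each point carrying its replicate number, and black marks for mean ± SD of a group (n = 5 each). All 5 baricitinib arrays lay above all vehicle arrays for Crabp1 (8.08 to 9.49 against 5.16 to 7.68), and vehicle replicate 5 had the lowest value in 7 of the 11 panels.

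Cellular retinoic acid binding proteins are encoded by Crabp1 and Crabp2. Crabp1, whose product holds retinoic acid in the cytoplasm, is known in skin from dermal papilla cells and fibroblasts. Its log2 values were 9.37, 8.08, 9.49, 9.41 and 8.37 in baricitinib replicates 1 to 5 and 7.12, 7.16, 7.42, 7.68 and 5.16 in vehicle replicates 1 to 5. The groups did not overlap, and the baricitinib arrays fell into a higher trio (replicates 1, 3 and 4) and a lower pair (replicates 2 and 5). The mean was 8.95 ± 0.67 with baricitinib and 6.91 ± 1.0 with vehicle (SD, n = 5 each), a 4.11-fold difference. Without vehicle replicate 5 the vehicle mean was 7.34 ± 0.26 (SD, n = 4) and the difference 1.60 ± 0.31 log2, or 3.04-fold (SE, limma adjusted p = 0.0733). Vehicle replicate 4 had an RNA control gap of 1.01 log2 and the highest Crabp1 value of the vehicle arrays, 7.68. Markers of the dermal papilla averaged 6.94 to 7.41 log2 on the baricitinib arrays, 6.31 to 6.98 on vehicle replicates 1 to 4 and 6.43 on vehicle replicate 5, and fibroblast genes 11.26 to 12.14, 11.04 to 11.46 and 11.22. Within the baricitinib group the papilla mean was highest in replicate 2 (7.41), where Crabp1 was lowest. It was lowest in replicates 3 and 4 (6.94 each), where Crabp1 was highest. Fibroblast genes were highest in replicate 3 (12.14) and lowest in replicate 4 (11.26). The part of these cell types in the Crabp1 difference was not tested.

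Crabp2, whose product delivers retinoic acid to its nuclear receptor and is made in epidermis and hair follicle, gave no comparable separation. It was at 12.00, 11.91, 11.42, 11.92 and 12.57 log2 in baricitinib replicates 1 to 5, at 12.15, 12.53, 11.82 and 12.43 in the first 4 vehicle replicates and at 7.28 in the last. The first 9 of these values overlapped between the groups and lay within a narrow band, with vehicle replicate 5 far below it. The difference was 0.72 ± 0.91 log2 with all arrays (SE, limma adjusted p = 0.637) and -0.27 ± 0.23 without vehicle replicate 5 (adjusted p = 0.447), so its sign was set by that array.

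The stretches upstream of Crabp1 and Cyp26b1 are shown because these genes had the largest differences of the retinoid genes with all arrays. Both are RefSeq sequences of build GRCm38.p6, written 5′ to 3′ on the strand of the gene and ending at the base before the outermost annotated start. Capitals mark TATAAA, read on both strands.
Crabp1, chr9:54764498-54764747, plus strand: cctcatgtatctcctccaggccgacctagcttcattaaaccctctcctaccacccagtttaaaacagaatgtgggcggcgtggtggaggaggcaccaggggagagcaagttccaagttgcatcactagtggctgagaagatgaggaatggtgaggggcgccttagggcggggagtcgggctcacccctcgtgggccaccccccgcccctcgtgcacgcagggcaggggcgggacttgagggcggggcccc
Cyp26b1, chr6:84593909-84594060, minus strand: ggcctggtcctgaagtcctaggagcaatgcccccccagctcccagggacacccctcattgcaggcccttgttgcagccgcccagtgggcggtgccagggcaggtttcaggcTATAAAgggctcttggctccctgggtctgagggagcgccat

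Bases G and C made up 63.6% of the Crabp1 stretch and 65.1% of the Cyp26b1 stretch. A TATAAA was found upstream of Cyp26b1, with its first base 41 bases before the annotated start, and not upstream of Crabp1, and 12.4% of 32851 RefSeq windows of 250 upstream bases held one. The Cyp26b1 stretch shown has 152 bases, fewer than these windows, because the 250-base window of that gene reached past the outermost annotated start into the gene. Neither the nuclear receptor half-site AGGTCA nor the STAT-type palindrome TTCNNNGAA, each read on both strands, occurred in the 250-base window of either gene. These occurred in 14% and 7.02% of all windows. Of the 9 listed genes 7 had a window, and the window of Dhrs9 held the only AGGTCA among them.

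Breakdown of retinoic acid was represented by Cyp26b1, whose product clears retinoic acid in skin and other tissues. Its values were 9.90, 8.63, 10.39, 10.57 and 9.24 log2 in baricitinib replicates 1 to 5 and 7.86, 8.44, 8.16, 8.71 and 7.20 in vehicle replicates 1 to 5. The groups overlapped at a single pair of arrays, baricitinib replicate 2 lying just below vehicle replicate 4. The means were 9.75 ± 0.81 and 8.07 ± 0.58 (SD, n = 5 each), a 3.19-fold difference, and without vehicle replicate 5 the difference was 1.45 ± 0.39 log2, or 2.74-fold (SE, limma adjusted p = 0.0824). As in Crabp1, baricitinib replicates 1, 3 and 4 were the highest arrays and replicates 2 and 5 the lower pair. Cyp26a1, the other measured gene of this enzyme family, was at 4.13 to 6.03 log2 on the baricitinib arrays and 3.80 to 4.63 in the first 4 vehicle replicates, with vehicle replicate 5 at 7.05 (difference 0.15 ± 0.63, SE, limma adjusted p = 0.893). Without that array its difference was 0.72 ± 0.39 (adjusted p = 0.252).

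Markers of other skin compartments were also higher on average in baricitinib treated skin, and followed Crabp1 and Cyp26b1 over the single arrays only in part. Adipocyte genes (4 of 6 listed measured) averaged 9.05 to 10.94 log2 on the baricitinib arrays, 7.45 to 8.75 on vehicle replicates 1 to 4 and 7.89 on vehicle replicate 5. Sebaceous gland genes (7 of 10 measured) averaged 9.55 to 10.33, 8.37 to 9.61 and 7.37, and skeletal muscle genes 10.82 to 12.63 and 10.94 to 11.88, with vehicle replicate 5 below all of these. For both sets the groups overlapped. Baricitinib replicate 4 had the highest sebaceous mean and also the highest Cyp26b1 value, and baricitinib replicate 2 had the lowest sebaceous mean of its group and the lowest Crabp1 and Cyp26b1 values. Vehicle replicate 4, the highest vehicle array for both genes, had a sebaceous mean of 9.11, below vehicle replicates 1 and 2 (9.38 and 9.61). Adipocyte genes had another order, with baricitinib replicate 5 the lowest of its group (9.05) and replicate 3 the highest (10.94). Basal keratinocyte genes (6 of 6 measured) averaged 11.98, 11.48, 12.15, 12.25 and 11.69 log2 in baricitinib replicates 1 to 5, the same order as Cyp26b1, against 11.15 to 11.60 in the first 4 vehicle replicates and 10.46 in the last (difference 0.69, and 0.50 without the last). The part of tissue composition in these differences was not tested.

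**Figure D2:**
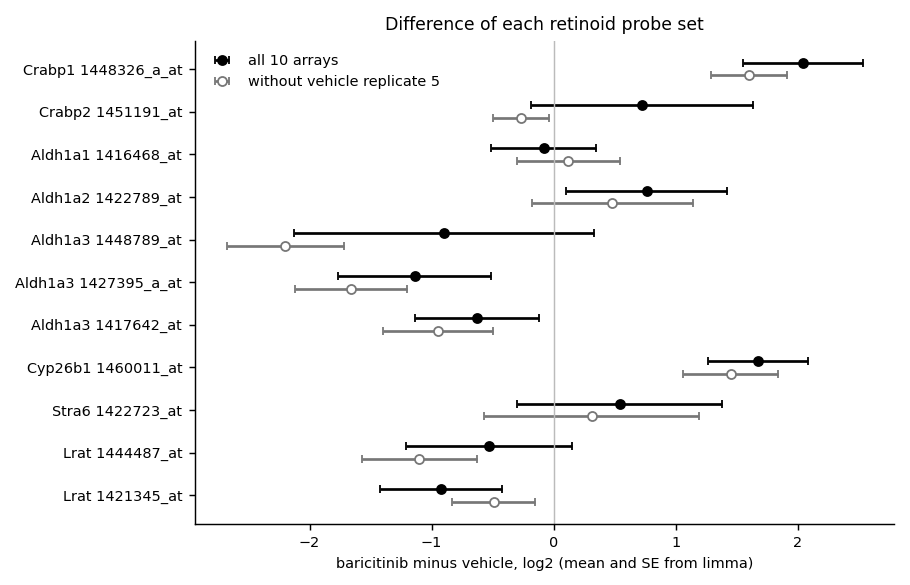
Difference of each retinoid probe set, baricitinib minus vehicle, in log2 with its SE from limma, filled for all 10 arrays and open where vehicle replicate 5 was left out. Crabp1 and Cyp26b1 lay at 2.04 and 1.67 with all arrays, and the brightest Aldh1a3 probe set moved from -0.90 to -2.20 when vehicle replicate 5 was left out.

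Retinaldehyde is oxidised to retinoic acid by the enzymes that Aldh1a1, Aldh1a2 and Aldh1a3 encode. Of these Aldh1a3 had lower values in baricitinib treated skin on all 3 of its probe sets. The brightest was at 7.69, 8.38, 7.44, 7.20 and 9.82 log2 in baricitinib replicates 1 to 5, at 10.02, 10.08, 10.68 and 10.42 in the first 4 vehicle replicates and at 3.82 in the last. Apart from vehicle replicate 5, every vehicle array was above every baricitinib array, and baricitinib replicate 5 was the nearest to the vehicle range. With all arrays the difference was -0.90 ± 1.23 log2 (SE, limma adjusted p = 0.665). Without vehicle replicate 5 it was -2.20 ± 0.48 log2, or 4.58-fold lower (adjusted p = 0.0733). The vehicle mean changed from 9.0 ± 2.91 (SD, n = 5) to 10.30 ± 0.30 (SD, n = 4), against a baricitinib mean of 8.10 ± 1.05 (SD, n = 5).

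The other Aldh1a3 probe sets placed the arrays in a similar order but with overlap. The next brightest was at 6.60, 7.19, 5.95, 5.93 and 8.08 in baricitinib replicates 1 to 5 and at 7.59, 8.61, 9.03, 8.42 and 5.83 in vehicle replicates 1 to 5. Its difference was -1.14 ± 0.63 log2 with all arrays and -1.66 ± 0.46 without vehicle replicate 5 (SE, limma adjusted p = 0.395 and 0.0854). The dimmest was at 5.35 to 7.55 on the baricitinib arrays, 6.46 to 7.82 in the first 4 vehicle replicates, with vehicle replicate 5 at 5.43. Its difference was -0.63 ± 0.51 log2, and -0.95 ± 0.45 without that array (adjusted p = 0.497 and 0.202). On each of the 3 probe sets baricitinib replicate 5 was the highest baricitinib array.

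Interferon-stimulated genes divided the arrays the same way. Their mean (9 of 10 listed genes measured) was 6.92 to 8.28 log2 in baricitinib replicates 1 to 4, 10.89 in baricitinib replicate 5, 10.39 to 11.17 in the first 4 vehicle replicates, with vehicle replicate 5 at 7.52. T cell genes (5 of 6 measured) averaged 6.83 to 8.18, 9.72, 9.66 to 10.23 and 6.61 in the same order. Thus the 4 baricitinib arrays low in interferon genes were also the 4 lowest of their group for Aldh1a3. Vehicle replicate 5 was low in all of these, but its low values were not particular to them. It was also the lowest array for basal keratinocyte (10.46), hair shaft (5.70) and sebaceous gland genes (7.37). Crabp1 and Cyp26b1 did not follow this division, since baricitinib replicate 5 was above all vehicle arrays for both genes (8.37 and 9.24 log2). Suprabasal epidermal genes (7 of 8 measured) averaged 11.43 to 11.89 on the baricitinib arrays, 12.04 to 12.47 in the first 4 vehicle replicates, with vehicle replicate 5 at 11.60. The part of inflammation or of epidermal content in the Aldh1a3 values was not tested.

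Aldh1a1 and Aldh1a2 did not separate the groups. Aldh1a1 was at 9.0, 8.40, 9.63, 10.02 and 8.67 log2 in baricitinib replicates 1 to 5 and at 9.79, 8.83, 9.46, 8.02 and 10.01 in vehicle replicates 1 to 5. Its difference was -0.08 ± 0.43 log2 (SE, limma adjusted p = 0.923), and 0.12 ± 0.42 without vehicle replicate 5. Within both groups Aldh1a1 ran against the hair matrix genes: baricitinib replicate 2 and vehicle replicate 4, which had the highest matrix means of their groups, had the lowest Aldh1a1 values of their groups. Aldh1a2 was at 6.50, 7.19, 4.09, 4.70 and 5.31 in baricitinib replicates 1 to 5 and at 3.80, 5.38, 6.05, 5.11 and 3.64 in vehicle replicates 1 to 5. The vehicle values lay wholly within or below the baricitinib range, and the difference was 0.76 ± 0.66 log2 (adjusted p = 0.515), or 0.48 ± 0.66 without vehicle replicate 5.

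Uptake and storage of retinol were represented by Stra6, encoding the receptor for retinol-binding protein, and Lrat, encoding the enzyme that esterifies retinol. Stra6 had the largest spread within baricitinib treated skin of all 11 probe sets (SD 1.78 log2). It was at 7.86, 9.04, 4.99, 5.18 and 7.63 in baricitinib replicates 1 to 5 and at 6.25, 5.95, 5.99, 8.33 and 5.47 in vehicle replicates 1 to 5. Baricitinib replicates 3 and 4 had the lowest values of all arrays, and vehicle replicate 4 stood with the high baricitinib arrays. The difference was 0.54 ± 0.84 log2 (SE, limma adjusted p = 0.704) and 0.31 ± 0.88 without vehicle replicate 5. It depended on single arrays, being 0.013 without baricitinib replicate 2, 0.31 without baricitinib replicate 1, 1.02 without baricitinib replicate 3 or vehicle replicate 4 and 0.98 without baricitinib replicate 4.

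Lrat was at 7.13, 8.72, 6.18, 6.62 and 7.66 log2 by its brighter probe set in baricitinib replicates 1 to 5, at 8.57, 8.96, 8.12 and 7.80 in the first 4 vehicle replicates and at 5.49 in the last. Among vehicle replicates 1 to 4 the lowest value was above those of all baricitinib arrays except replicate 2. The difference was -0.53 ± 0.68 log2 with all arrays and -1.10 ± 0.47, or 2.15-fold lower, without vehicle replicate 5 (SE, limma adjusted p = 0.643 and 0.168). By the dimmer probe set Lrat was at 4.60 to 6.02 on the baricitinib arrays, 5.06 to 6.52 in the first 4 vehicle replicates, with vehicle replicate 5 the highest of all at 8.0. Its difference was -0.92 ± 0.50, and -0.49 ± 0.34 without that array. Both probe sets thus gave a negative difference, while vehicle replicate 5 was the lowest array on one and the highest on the other.

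The order of the arrays by Stra6 resembled their order by hair matrix genes. Hair matrix genes, which are expressed in the growing follicle (8 of 8 measured), averaged 9.79, 10.41, 7.36, 7.60 and 9.57 log2 in baricitinib replicates 1 to 5 and 8.89, 9.39, 8.91, 9.97 and 6.76 in vehicle replicates 1 to 5. The 4 arrays with the highest matrix means, baricitinib replicates 1, 2 and 5 and vehicle replicate 4, were the 4 with the highest Stra6 values, in the same order. The 3 with the lowest matrix means, baricitinib replicates 3 and 4 and vehicle replicate 5, were the 3 with the lowest values of Stra6 and of the brighter Lrat probe set. Hair shaft keratins behaved likewise, averaging 7.33 and 9.36 log2 in baricitinib replicates 3 and 4 against 11.26 to 12.56 in replicates 1, 2 and 5. For Crabp1 and Cyp26b1, baricitinib replicates 3 and 4 were the highest of their group and replicate 2, the highest in matrix genes, was the lowest. These statements describe 10 arrays and were not tested.

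**Figure D3:**
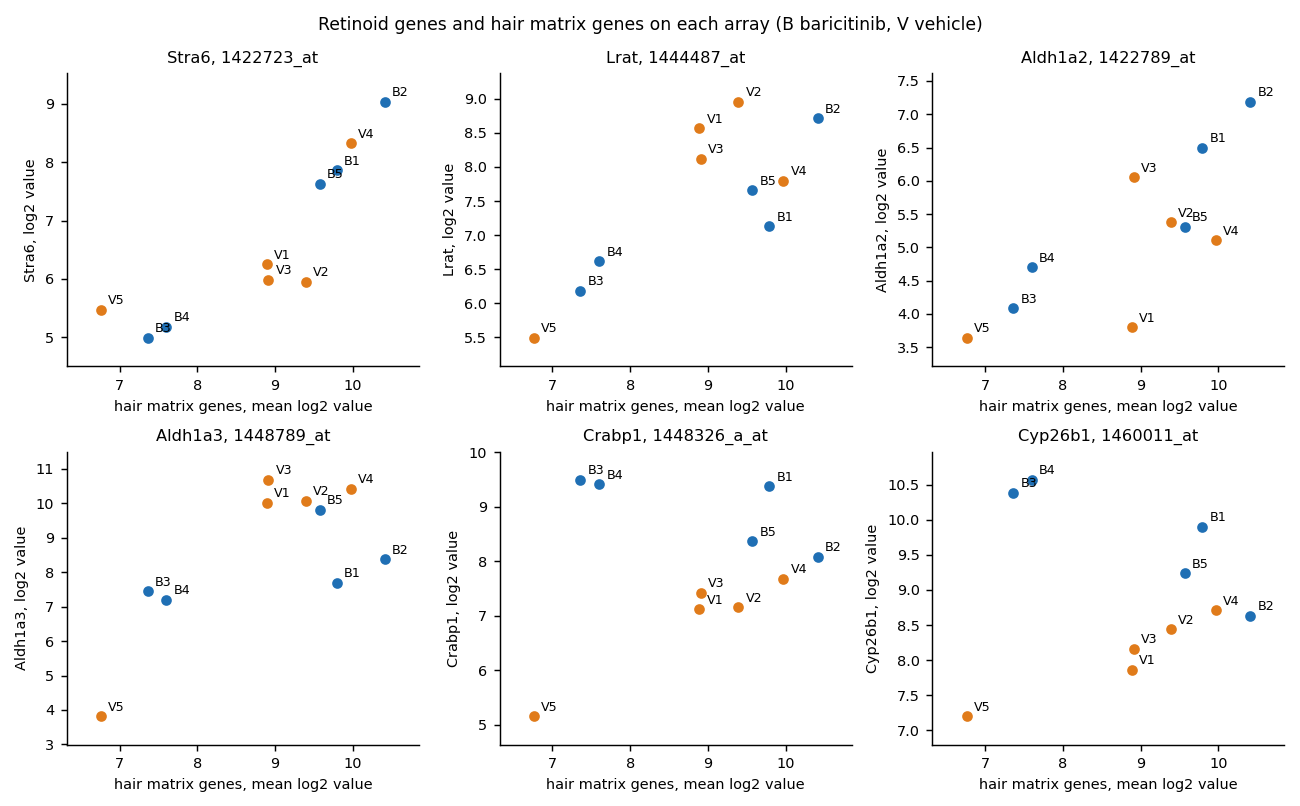
Log2 value of 6 retinoid probe sets (vertical) against the mean log2 value of the 8 hair matrix genes (horizontal) on each array, blue for baricitinib (B1 to B5) and orange for vehicle (V1 to V5). Stra6 was highest on B2 (9.04), V4 (8.33), B1 (7.86) and B5 (7.63), the 4 arrays highest in matrix genes, whereas Cyp26b1 was highest on B4 (10.57) and B3 (10.39), where matrix genes were low.

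Other genes of the pathway were taken from a list of 50 genes, of which 46 were measured. The list was chosen with earlier results of these data known. Its shares beside those of all named genes are therefore a description and not a test. None passed an adjusted p of 0.05 in limma with all arrays or without vehicle replicate 5. At an unadjusted p under 0.05 there were 10 higher and 2 lower, that is 21.7% and 4.35%, beside 9.81% and 6.22% of all 18193 named genes, each read by its brightest probe set. The median difference was 0.28 log2, beside 0.01 over all named genes. Without vehicle replicate 5 there were 11 higher (23.9%) and 7 lower (15.2%), beside 13.3% and 16.1% of all named genes, and the median was 0.17, beside -0.06. At 2 of the 46 genes (Dhrs3 and Nrip1, below) every baricitinib array lay above every vehicle array, beside 692 of the 18193 named genes. At 1 gene (Tgm2) every baricitinib array lay below, beside 332 of the named genes. Without vehicle replicate 5 these counts were 2 and 2, beside 824 and 861.

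Of 10 measured genes of retinol supply, storage and binding, 9 had a positive difference, with a median of 0.93 log2. At an unadjusted p under 0.05 in limma 6 were higher (60%, beside 9.81% of all named genes). Because these genes were listed with earlier results of these data known, this contrast is only a description. Without vehicle replicate 5 there were 6 higher (60%) and 1 lower (10%), beside 13.3% and 16.1% of all named genes, and the median was 0.79. The lower one was Rbp2, a cellular retinol-binding protein gene, which differed by -0.43 ± 1.03 with all arrays and by -1.51 ± 0.41 without that array (SE, limma adjusted p = 0.0835). Rbp7, encoding a retinol-binding protein of fat and vessels, was at 9.44, 9.25, 10.65, 11.62 and 8.30 in baricitinib replicates 1 to 5 and at 7.45 to 8.49 on the vehicle arrays (difference 1.78 ± 0.55 log2, SE, limma adjusted p = 0.24, and 1.62 without vehicle replicate 5). Lipe, encoding a lipase that can release retinol from its esters, was at 7.33 to 8.49 and 5.04 to 7.45 (difference 1.64 ± 0.46, adjusted p = 0.229, and 1.27 without that array), although a dimmer Lipe probe set gave -0.17. Both genes are also expressed in fat, and adipocyte genes were higher on every baricitinib array than on any vehicle array, as given above. The other higher genes, named after their values were seen, were Cd36 (1.22), Rbp4 (1.40), Scarb1 (0.97) and Bco2 (0.90). The part of fat content in the differences of this group was not tested.

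Of 18 genes of retinol oxidation and retinaldehyde reduction 2 were higher at an unadjusted p under 0.05 (11.1%, near the 9.81% of all named genes) and 0 lower, with a median of 0.28 log2. There were 3 higher (16.7%) and 2 lower (11.1%) without vehicle replicate 5, beside 13.3% and 16.1% of all named genes, and the median was -0.04. The lower ones, named after their values were seen, were the retinol dehydrogenase genes Rdh12 (0.16 with all arrays and -0.35 without that array) and Rdh13 (0.15 and -0.47). A dimmer Rdh12 probe set gave 0.68 with all arrays. Dhrs3, which is induced by retinoic acid and encodes an enzyme that turns retinaldehyde back into retinol, was at 10.91, 10.80, 11.06, 11.14 and 10.84 in baricitinib replicates 1 to 5 and at 10.13, 10.75, 9.86, 10.54 and 8.15 in vehicle replicates 1 to 5. Its groups lay close together but did not overlap, and the difference was 1.06 ± 0.43 log2, or 0.63 ± 0.18 without vehicle replicate 5 (SE, limma adjusted p = 0.306 and 0.089). Dhrs4, an enzyme of the same family and named here after its values were seen, was the other higher gene (difference 0.78, adjusted p = 0.321, and 0.48 without vehicle replicate 5). Rdh11, a retinaldehyde reductase gene, had a difference of 1.07 that became 0.49 without vehicle replicate 5.

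Among nuclear receptors and a binding protein (8 measured) 1 gene was higher at an unadjusted p under 0.05 with all arrays. The higher gene (12.5%, beside 9.81% of all named genes) was Rxra, the partner receptor. It was at 10.36 to 11.31 log2 on the baricitinib arrays and 9.59 to 10.67 in the first 4 vehicle replicates, with vehicle replicate 5 at 8.06 (difference 1.17 ± 0.44, SE, limma adjusted p = 0.287, and 0.76 without that array), and its 3 probe sets gave 0.32 to 1.17. Without vehicle replicate 5 there were 1 higher (12.5%) and 2 lower (25%), beside 13.3% and 16.1% of all named genes. The lower ones were named after their values were seen. Ppard, a receptor gene, was at 7.0 to 7.70 log2 on the baricitinib arrays, 7.87 to 8.95 in the first 4 vehicle replicates and 6.21 in the last, and differed by -0.64 with all arrays and by -1.10 ± 0.23 without the last (SE, adjusted p = 0.0733). Fabp5, which encodes a fatty acid binding protein that can carry retinoic acid, differed by -0.24 and -0.29, although a dimmer Fabp5 probe set gave 0.41 with all arrays. Rarg, the main retinoic acid receptor gene of epidermis, differed by 0.78 (0.34 without vehicle replicate 5). The group median was 0.02.

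The genes listed only as ones that retinoic acid can induce in cultured cells did not move together. Of 6 measured, 3 had a positive and 3 a negative difference. Induced genes listed under another role, such as Dhrs3 above, are not among these 6. Tgm2, encoding tissue transglutaminase, was lower on every baricitinib array (11.65 to 12.64 log2) than on any vehicle array (12.69 to 13.37) by its brightest probe set (-0.73 ± 0.22, SE, limma adjusted p = 0.235, and -0.76 without vehicle replicate 5), but its 6 probe sets ranged from -0.93 to 0.55. Bhlhe40, a transcriptional repressor gene, was at 9.35 to 9.54 in baricitinib replicates 1 to 4, 10.82 in baricitinib replicate 5, 10.64 to 11.52 in the first 4 vehicle replicates, with vehicle replicate 5 at 9.76 (difference -1.02 ± 0.38, adjusted p = 0.28, and -1.27 without vehicle replicate 5). This was the division of the arrays seen for Aldh1a3. Nrip1, a nuclear receptor corepressor gene named after its values were seen, was higher on every baricitinib array than on any vehicle array (difference 0.59, adjusted p = 0.227, and 0.54 without vehicle replicate 5).

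Of the small remaining groups, the aldehyde dehydrogenase genes Aldh1a7 and Aldh8a1 differed by 0.37 and -0.53 (limma adjusted p = 0.655 and 0.57), the second turning to 0.07 without vehicle replicate 5, and Cyp2s1, encoding a cytochrome P450 of epithelia, by -0.10 (adjusted p = 0.885), or -0.43 without that array.

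**Figure D4:**
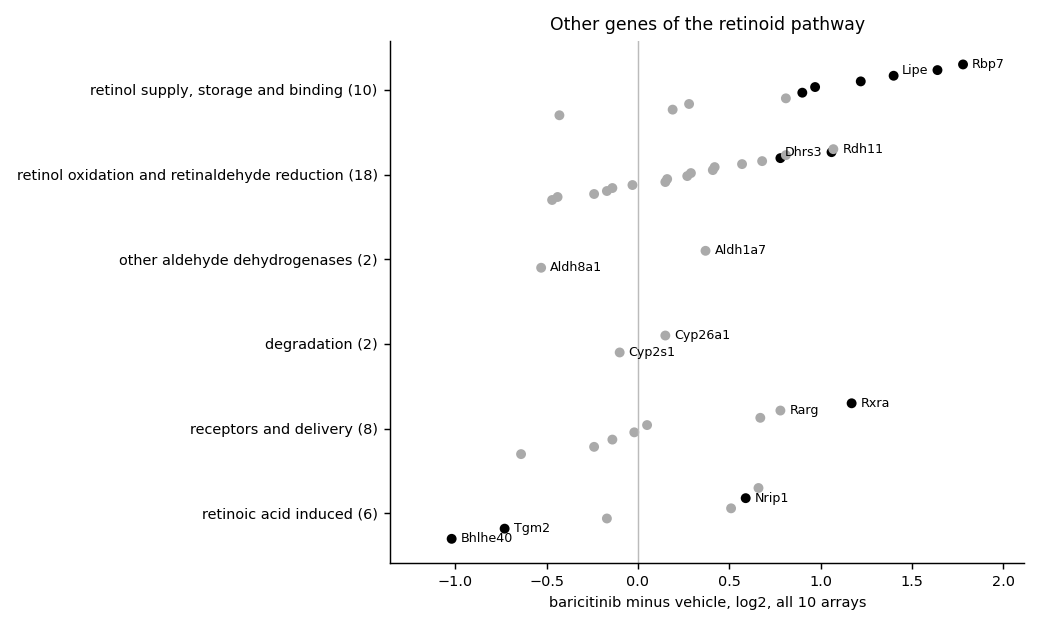
Difference of each of the 46 other pathway genes, baricitinib minus vehicle, in log2 with all 10 arrays, by role (number measured in brackets), black where the unadjusted limma p was under 0.05 and grey otherwise. Rbp7 (1.78) and Lipe (1.64) lay highest and Bhlhe40 (-1.02) lowest.

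The genes whose profiles over the arrays were most like those of the retinoid genes were found by the root mean square difference between profiles after each gene's own mean had been removed, over the 9 arrays without vehicle replicate 5. For Crabp1, which deviated from its own mean by 0.92 log2 (root mean square), they were Pcp4l1 (0.19) and the clock gene Per1 (0.24). Over all 10 arrays they were Cmbl and Per1 (0.24 each). For Cyp26b1 they were Tns2 and Il34 (0.19 each), and over all arrays Pnpla2, a triglyceride lipase gene (0.19), and Rcan2 (0.22). For Aldh1a3 they were Egln3 (0.33) and Chil1 (0.37), which differed between the groups by -1.76 and -2.34 log2 without vehicle replicate 5. Over all arrays they were Rbp2, a retinol-binding protein gene of the pathway list (0.57), and Kif26b (0.63). For Crabp2 they were the follicle transcription factor gene Sox9 (0.14) and Qsox1 (0.15), and for Aldh1a1 Pde2a (0.15) and the muscle gene Klhl41 (0.17). Stra6 was nearest to Slc13a5 (0.37) and Dclk3 (0.39), and Lrat to 1110008P14Rik (0.32) and Atp6v0d2 (0.33). Aldh1a2 was nearest to Lman1l (0.45) and Gprc5a (0.47), the largest of these distances among the 8 genes. A gene's own deviation from its mean also differed, being 0.36 log2 for Crabp2 and 1.36 for Stra6. The distances therefore do not rank likeness between the retinoid genes. Over all 10 arrays the nearest genes were Qsox1 (0.15) and Lypd3 (0.21) for Crabp2, Inmt and Klhl41 (0.20 each) for Aldh1a1, Rnf180 (0.54) and Arhgap20os (0.55) for Aldh1a2, Dlx2 and Dclk3 (0.40 each) for Stra6 and Homer1 and Nup210 (0.37 each) for Lrat. The nearest were picked from 18193 genes and are given as a description.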

How the data were processed

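NuGen kits served to amplify and label skin RNA from 10 mice, which was read on Affymetrix Mouse Genome arrays. The authors deposited RMA output on the log2 scale, 1 value for each probe set and array after background correction and quantile normalization, and no RMA version is given in the sources used here. The study's methods removed 1 vehicle array after quality control, which the labels do not name, so all 10 were used and each was also left out in turn. Precision is limited by the number of arrays.

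The table held 45101 probe sets. Of these 64 controls were set aside and 45037 were tested without a filter; 34945 had 1 gene symbol in the platform annotation, 932 several and 9160 none. The groups were compared by limma 3.58.1 in R 4.3.3 (lmFit, eBayes, two-sided, Benjamini-Hochberg over all tested probe sets, threshold 0.05), and the calculation was tested on simulated data. Differences are baricitinib minus vehicle. Mouse replicates were separate animals. Retinoid genes, the pathway list and the marker lists were chosen with earlier results of these data known. The text names every retinoid probe set, pathway genes past the threshold and the 2 with the largest difference in each role, and the 2 genes most alike in profile. A gene outside the 9 was represented by its brightest probe set on average. Promoter sequences and the outermost starts came from RefSeq tables for GRCm38.p6. Alternatives were the replicate number as a block, equal array medians, array quality weights, a filter on a mean above 5 log2, eBayes with trend and robust settings, and 1 probe set per gene.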

Additional observations from a re-analysis of the deposited data

Results flagged for a closer look

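In groups of 5 arrays, values that stood far from the other 4 of their group were sought at the 11 retinoid probe sets and the 12 pathway genes that the rule named. In 46 groups 10 such values were found, and 8 of them were on vehicle replicate 5. Chance alone flags about 1 group in 20, but that rate cannot be applied to this count. All groups came from the same 10 arrays, and the pathway genes were picked by their difference with vehicle replicate 5 included. Among the retinoid genes that array stood low for Crabp1 (5.16 log2, the other vehicle arrays 7.12 to 7.68), Crabp2 (7.28 against 11.82 to 12.53) and the brightest Aldh1a3 probe set (3.82 against 10.02 to 10.68). Among pathway genes it stood low for Rdh11 (4.96 against 7.62 to 8.35), Cyp2s1 (8.27 against 9.72 to 10.07) and Rarg (7.42 against 9.28 to 9.91), and high for Aldh8a1 (6.72 against 3.65 to 3.83) and Cyp26a1 (7.05 against 3.80 to 4.63). The others were Stra6 on vehicle replicate 4 (8.33 against 5.47 to 6.25) and Bhlhe40 on baricitinib replicate 5 (10.82 against 9.35 to 9.54).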

How the results depend on the processing

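With the 15 alternatives run for single probe sets, the differences of Crabp1 (1.60 to 2.26 log2), Cyp26b1 (1.45 to 1.95), Aldh1a2, the 3 Aldh1a3 probe sets, Stra6 and both Lrat probe sets kept their sign. Array quality weights gave 9676 calls over all probe sets and 5 of the 11 retinoid probe sets: Crabp1 (1.85, adjusted p = 0.00867), Cyp26b1 (1.56), the brightest and next brightest Aldh1a3 probe sets (-2.23 and -1.71) and the brighter one of Lrat (-1.34). No other alternative called a retinoid probe set; for Crabp1 the adjusted p ranged from 0.00867 to 0.513 over the alternatives. Crabp2 turned negative with the weights (-0.26) and without vehicle replicate 5 (-0.27). With single arrays left out Crabp2 ranged from -0.27 to 1.04 and Aldh1a1 from -0.38 to 0.12, positive where baricitinib replicate 2 (0.11) or 5 (0.041), or vehicle replicate 1 (0.06) or 5 (0.12), was missing. With single arrays left out the count of all probe sets past the threshold ranged from 0 to 848, reached without vehicle replicate 4 (12 without baricitinib replicate 5). Groups were fully apart at 2304 probe sets with all arrays and at 2596 to 7875 with 1 array left out (7875 without vehicle replicate 4, 4037 without baricitinib replicate 2, 3843 without vehicle replicate 5, 3514 without baricitinib replicate 5), and at 1 to 2 of the retinoid probe sets. Leaving out an array cannot lower these counts, so they say nothing about stability. The cause of the other changes was not tested. With the replicate number as a block, 0 probe sets passed and Crabp1 differed by 2.04 (adjusted p = 0.351); same-numbered arrays did not deviate together (r from -0.227 to 0.0885), so the numbers were not taken as pairs.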
